A study of Mus musculus with 22 samples.

Results

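The genes described here are 36 genes of blood vessel cells, 24 that mark endothelial cells and 12 that mark mural cells, out of 29367 genes in the count table. They were picked by gene symbol, with earlier results of these data known, and all 36 symbols were found once in the table. Shares over all genes are therefore given beside their counts as a reference, not as a test of the list. The libraries hold polyadenylated mRNA pulled down with HA-tagged astrocyte ribosomes from 2 regions of the mouse optic nerve. These are the optic nerve head (ONH), the unmyelinated stretch next to the eye, and the optic nerve proper (ONP), the myelinated nerve behind it. All mice were 3 to 4 months old and came from a cross of the Ribotag strain B6J.129(Cg)-Rpl22tm1.1Psam/SjJ with the Cre strain B6.Cg-Tg (GFAP-Cre), line 73.12Mvs/J, and are labelled WT for genotype. All were homozygous for the floxed Rpl22 allele and carried Cre, which was driven by the GFAP promoter, so the tag depends on where that promoter was active. All had microbeads injected into 1 eye to raise intraocular pressure, and tissue was taken 7 or 30 days later. There were 4 libraries per region at 7 days and 7 per region at 30 days, 22 in all, and each was made from 4 mice, with 2 of either sex. Untreated mice were not analysed here, so 7 days is the earliest point of every comparison.

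Endothelial cells line blood vessels and are held together in the central nervous system by tight and adherens junctions, carry few vesicles and express transporters that decide what enters the tissue. Mural cells lie on their outer face. They are pericytes on capillaries and smooth muscle cells on arterioles and venules, and they regulate vessel diameter and stability. Astrocyte end-feet cover the same vessels, so endothelial, mural and astrocyte processes meet within the optic nerve.

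Library totals ranged from 16292489 to 33307092 counts. An amount of 3 counts, taken as the limit of detection for counting error only, equalled 0.0901 to 0.184 CPM (counts relative to library size, scaled by TMM). Against the astrocyte label of the libraries, 10 astrocyte markers summed to 14538 to 33600.0 CPM per library. The 24 endothelial genes together reached 89.5 to 1029.6 CPM and the 12 mural genes 317 to 1515 CPM. Myelin and oligodendrocyte markers were not absent, since 8 of them summed to 13312 to 105844 CPM. This was more than the astrocyte markers in every 7 day ONP library and in some libraries of each other group. Their median sum was 52765.5 against 28682 CPM for astrocyte markers in the ONP at 30 days. In the ONH the medians were 22552.5 against 18238 CPM at 7 days and 18427 against 20435 CPM at 30 days. Library 7 of the ONH at 30 days stood apart by blood cell transcripts (5 genes summing to 2611 CPM, against a group median of 240.3 CPM), so the comparisons between regions that use it are also given without library 7 of both regions. Vessel genes were a minor share of these libraries, and whether they came through tagged ribosomes was not tested, because RNA from before the pull-down was not analysed here.

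Differences are given as log2 fold changes (log2FC) with their standard error (SE) from edgeR's quasi-likelihood test, adjusted by Benjamini-Hochberg across every gene in the fit, with a threshold of 0.05 on the adjusted p-value. A gene past this threshold is called. The plot of all 36 genes over the 22 libraries shows the main pattern, namely high endothelial values in every 7 day ONP library and in 2 of the 4 ONH libraries at 7 days, and low values in most 30 day libraries.

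**Figure D1:**
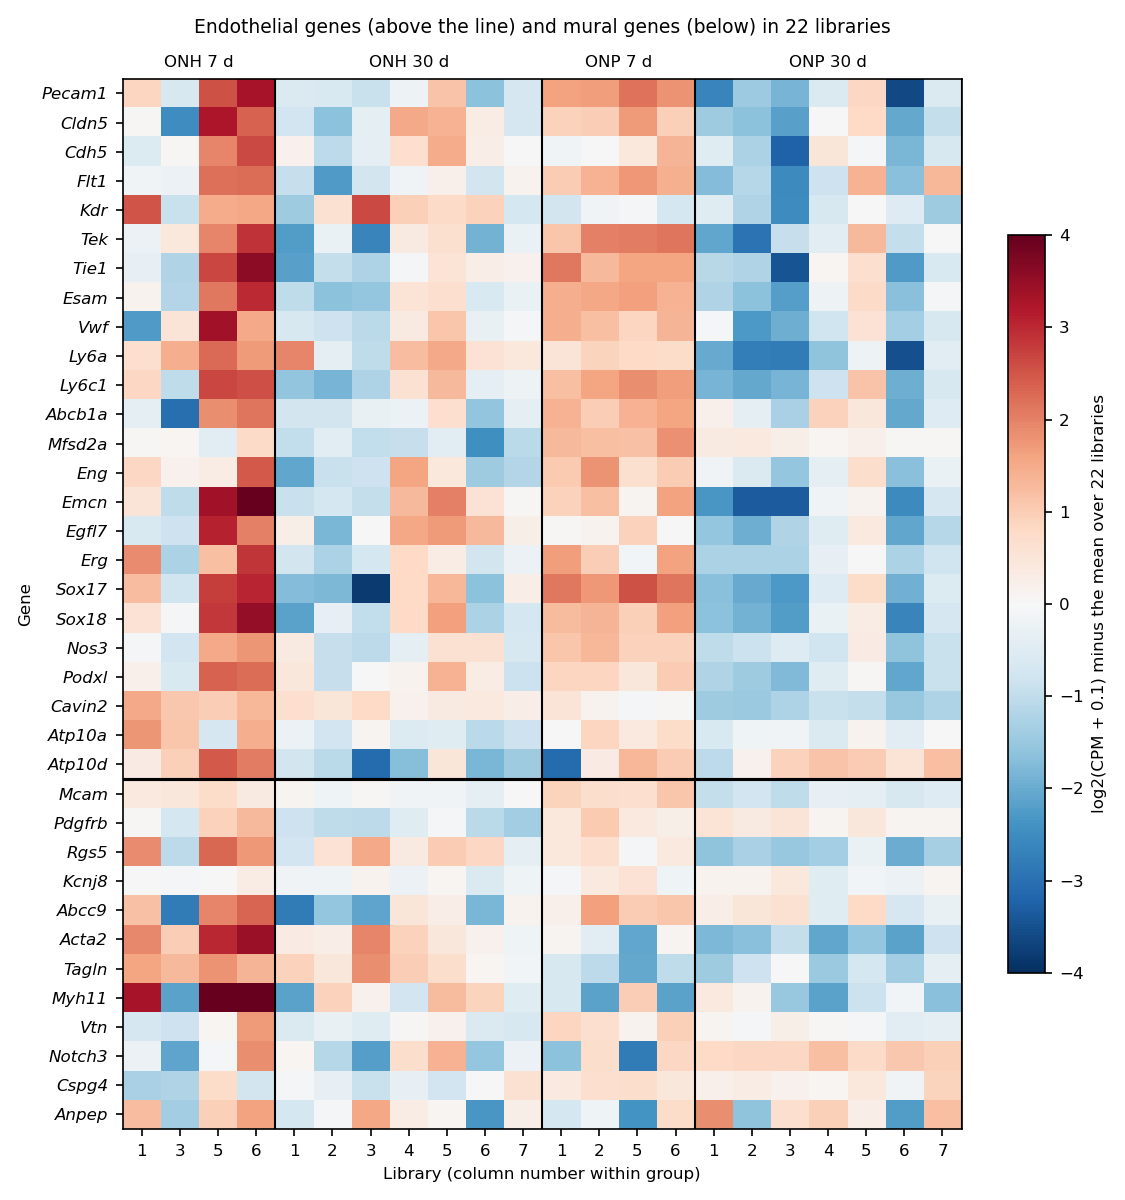
Level of each of the 36 genes (rows) in each of the 22 libraries (columns, by column number within group), as log2(CPM + 0.1) minus the mean of that gene over all 22 libraries; red is above and blue below that mean. The 24 endothelial genes above the line are mostly red in the 4 ONP libraries at 7 days and mostly blue in the 7 ONP libraries at 30 days, whereas the mural gene Kcnj8 stays pale throughout.

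The first comparison asked how vessel genes in the ONP changed between 7 and 30 days. Endothelial genes fell: of 24, 23 were tested, 18 were called lower at 30 days and none was called higher. The median log2FC of the 23 was -1.82, against -0.01 over all genes tested, and 9.21% of all genes tested were called lower and 7.82% higher. Mural genes moved less as a list: 4 of the 11 tested were called lower, none was called higher, and the median log2FC was -0.29 (-0.77 over the 9 that were tested under every alternative). From these pull-down libraries, fewer endothelial cells, less RNA per endothelial cell and less vessel RNA coming through the pull-down cannot be told apart. None of them was tested.

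Junction and adhesion genes were among those that fell. Pecam1 (ENSMUSG00000020717, chr11:106654217-106750628 in GRCm38, minus strand), which encodes the adhesion molecule of endothelial cell contacts, was at 15.1, 15.97, 22.2 and 17.4 CPM in ONP libraries 1, 2, 5 and 6 at 7 days and at 0.311 to 8.81 CPM (median 1.71) in the 7 libraries at 30 days (log2FC -2.70, SE 0.62, adjusted p = 0.0134). The groups did not overlap, and library 5 at 30 days was far above the other 6. Cldn5 (chr16:18776847-18778262, plus strand), the main claudin of endothelial tight junctions, was at 22.3, 23.2, 38.6 and 22.9 CPM at 7 days and at 2.51 to 20.3 CPM (median 4.33) at 30 days (log2FC -1.89, SE 0.51, adjusted p = 0.0258), again with no overlap. Esam, an adhesion molecule of endothelial tight junctions, was at 28.8 to 34.4 CPM at 7 days and 2.29 to 18.5 CPM at 30 days (log2FC -2.10, adjusted p = 0.0112). Cdh5, the cadherin of endothelial adherens junctions, was low in both groups at 1.23 to 3.64 CPM and 0.0558 to 1.94 CPM, overlapped and was not called (log2FC -1.29, adjusted p = 0.177).

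Receptors of the angiopoietin and VEGF systems behaved unevenly. Tie1, an orphan receptor that works with Tek, was at 20.6, 11.5, 14.2 and 14.1 CPM at 7 days and at 0.335 to 7.5 CPM (median 2.10) at 30 days (log2FC -2.37, SE 0.57, adjusted p = 0.0158), with no overlap. Tek, the angiopoietin receptor, fell to a like degree (log2FC -2.26, adjusted p = 0.0254), and 6 of 7 libraries at 30 days lay below all 4 at 7 days. The exception was library 5 at 10.03 CPM, which passed library 1 of the 7 day group at 8.77 CPM. Eng, a co-receptor for TGF-beta family ligands, was called lower as well (log2FC -1.58, adjusted p = 0.0171). The VEGF receptors were not called in the main fit. Flt1 gained a call with limma-voom, run with a quality weight for each library, and when library 5 of 30 days was left out. Flt1, which binds VEGF as a decoy, was at 16.4, 21.3, 26.8 and 21.8 CPM at 7 days and 1.28 to 21.03 CPM (median 3.56) at 30 days (log2FC -1.48, adjusted p = 0.150), and its 30 day libraries 5 and 7 sat at the level of the 7 day group while the other 5 were below it. Kdr, the main signalling receptor for VEGF, was at 6.31, 9.61, 10.2 and 6.52 CPM at 7 days and 1.79 to 10.7 CPM (median 6.78) at 30 days (log2FC -0.45, adjusted p = 0.441).

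Of the endothelial transcription factors Sox17 and Sox18 fell. Sox17, a SOX factor of arterial endothelium, had the most negative log2FC of the 34 members tested, at 9.13, 7.06, 12.4 and 9.22 CPM at 7 days against 0.335 to 3.41 CPM (median 0.569) at 30 days (log2FC -3.08, SE 0.54, adjusted p = 0.00378). Sox18, its close relative, was at 9.13, 9.74, 7.39 and 11.8 CPM at 7 days and 0.518 to 4.58 CPM (median 1.14) at 30 days (log2FC -2.35, adjusted p = 0.00921). Neither gene's groups overlapped. Erg, an ETS factor that maintains endothelial identity, was at 0.674, 0.382, 0.123 and 0.637 CPM at 7 days. All 7 libraries at 30 days held 3 counts or fewer of it, so it did not pass the filter on low counts and edgeR gave no fold change. DESeq2, run without that filter, called it lower from these few counts (log2FC -3.51, adjusted p = 0.0153).

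ETS factors such as Erg bind short DNA sites with a GGAA core, many of them near endothelial genes. Promoters of 23 of the 36 genes, 14 endothelial and 9 mural, were found in RefSeq (GRCm38.p6). The letters AGGAAG, or CTTCCT for the other strand, were in the 250 bases before the start in 9 of 14 endothelial and 0 of 9 mural genes, and in 32.3% of all 27025 genes with a promoter. A match does not show that a factor binds there. Windows of 60 bases are given for 3 of the 9 endothelial genes, a VEGF receptor, a TGF-beta co-receptor and a surface sialomucin, to show the site in its setting. They read 5′ to 3′ on the strand of the gene, and capitals mark the searched letters.
Flt1 (chr5:147726108-147726167, minus strand): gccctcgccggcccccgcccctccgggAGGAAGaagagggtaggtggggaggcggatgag
Eng (chr2:32646516-32646575, plus strand): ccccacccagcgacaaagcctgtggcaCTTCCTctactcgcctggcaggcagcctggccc
Emcn (chr3:137340877-137340936, plus strand): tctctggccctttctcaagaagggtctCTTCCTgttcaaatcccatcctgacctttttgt

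All surface and secreted endothelial genes had negative log2FC, and all but Egfl7 were called lower. Ly6a and Ly6c1, of 1 gene family whose shared reads the quantification had to divide, encode GPI-anchored surface proteins that mark mouse endothelium, and Ly6c1 was at 28.1, 37.1, 44.4 and 39.6 CPM at 7 days and at 2.91 to 27.3 CPM (median 3.32) at 30 days (log2FC -2.28, SE 0.56, adjusted p = 0.0176). Ly6a was at 41.3, 53.1, 50.2 and 48.04 CPM and at 2.43 to 25.2 CPM (median 6.997) (log2FC -2.23, adjusted p = 0.0146). In both genes the groups did not overlap, and for Ly6c1 library 5 at 30 days was at 27.3 CPM against 28.1 CPM for the lowest at 7 days. Emcn, the sialomucin endomucin, and Podxl, podocalyxin, were called lower with log2FC of -2.30 (adjusted p = 0.0422) and -1.82 (adjusted p = 0.00530). Vwf, the clotting factor stored in endothelial granules, was at 33.2, 28.2, 21.9 and 31.1 CPM at 7 days and at 2.36 to 18.1 CPM (median 6.92) at 30 days (log2FC -1.90, SE 0.45, adjusted p = 0.0143). Egfl7, a secreted endothelial factor, had 6 of 7 libraries at 30 days below the 7 day group and was not called (log2FC -1.28, adjusted p = 0.0668). It was called lower with DESeq2 (log2FC -1.26, adjusted p = 0.0317). It also gained a call with limma-voom and quality weights, and when library 5 of 30 days was left out.

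Mfsd2a and Cavin2 fell with little spread between libraries, and Nos3, Abcb1a and Atp10a were called lower too. Mfsd2a (chr4:122946850-122961188, minus strand), a lipid transporter that keeps vesicle traffic low at the blood-brain barrier, was at 64.1, 60.1, 58.4 and 91.8 CPM at 7 days and at 26.8 to 33.6 CPM (median 29.99) at 30 days (log2FC -1.24, SE 0.13, adjusted p = 0.000351). Its 7 libraries at 30 days had a coefficient of variation of 9.66%, against 105% for Pecam1. Cavin2, a caveola coat protein, was at 71.9, 55.9, 49.1 and 51.7 CPM and at 17.7 to 27.2 CPM (median 21.3) (log2FC -1.45, SE 0.15, adjusted p = 0.000351). Nos3, the endothelial nitric oxide synthase, was at 15.7, 18.1, 13.7 and 13.5 CPM and at 2.28 to 8.96 CPM (median 3.90) (log2FC -1.79, adjusted p = 0.00247). None of these 3 genes overlapped between days. Abcb1a, the drug efflux pump P-glycoprotein, was called lower (log2FC -1.51, adjusted p = 0.0397), as was the flippase Atp10a (log2FC -0.80, adjusted p = 0.0353), whereas the related Atp10d was at 0 to 2.01 CPM and 0.306 to 1.84 CPM and was not called (log2FC 0.12, adjusted p = 0.927).

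Among mural genes, Mcam, Rgs5, Vtn and Acta2 were called lower in the ONP at 30 days. Mcam (chr9:44134469-44142727, plus strand), the adhesion molecule CD146 of pericytes and endothelium, was at 132, 116, 113 and 156 CPM at 7 days and at 35.6 to 57.04 CPM (median 45.4) at 30 days (log2FC -1.52, SE 0.14, adjusted p = 0.000281). Rgs5, a regulator of G-protein signalling and a pericyte marker, was at 21.3, 25.1, 14.9 and 20.8 CPM and at 3.88 to 13.05 CPM (median 6.09) (log2FC -1.66, SE 0.28, adjusted p = 0.00282). Neither gene overlapped between days. Vtn, the secreted adhesion protein vitronectin, was at 339.8, 297, 206 and 360.2 CPM and at 139.5 to 222 CPM (median 182) (log2FC -0.77, adjusted p = 0.00866), and 6 of 7 libraries at 30 days were below all at 7 days. Acta2, smooth muscle actin, was at 25.7, 17.6, 5.54 and 25.9 CPM and at 5.33 to 13.5 CPM (median 7.46) (log2FC -1.18, adjusted p = 0.0476), and the groups overlapped because library 5 at 7 days was as low as the 30 day libraries.

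The other mural genes were not called in the ONP. Pdgfrb, the receptor through which endothelium recruits pericytes, was at 19.1, 28.95, 18.7 and 16.7 CPM at 7 days and at 15.1 to 20.8 CPM (median 18.3) at 30 days (log2FC -0.26, adjusted p = 0.311). Kcnj8, the pore of the pericyte ATP-sensitive potassium channel, was at 25.7, 34.4, 39.4 and 23.5 CPM and at 18.6 to 35.4 CPM (median 28.7) (log2FC -0.23, adjusted p = 0.412). Both sets of libraries overlapped. Abcc9, the partner subunit of Kcnj8, had a log2FC of -0.95 (adjusted p = 0.107) at 1.41 to 3.95 CPM and 0.725 to 2.19 CPM. Cspg4, the proteoglycan NG2, which oligodendrocyte precursors also express, had a log2FC of -0.29 (adjusted p = 0.252). Tagln, an actin-binding protein of smooth muscle, Notch3, the Notch receptor of mural cells, and Anpep, the surface aminopeptidase CD13, had positive log2FC of 0.29, 1.05 and 0.98 that did not pass the test (adjusted p = 0.566, 0.352 and 0.459). Myh11, smooth muscle myosin, stayed at or under 0.780 CPM in all ONP libraries and was not tested there.

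Groups that did not overlap at all, with every 30 day library lower, were found for 14 of 24 endothelial and 2 of 12 mural genes, against 5.79% of all genes tested. Of the 22 called genes, 15 kept their call whichever library was left out. The other 7 were Abcb1a, Acta2, Atp10a and Emcn, each kept in 3 of 11, and Tek, Cldn5 and Eng, kept in 8, 9 and 10 of 11.

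Other genes linked to vessels, outside the 36, were read from lists of barrier, signalling, vessel zone, smooth muscle and pericyte genes. Which cell type their RNA came from was not tested. Of 14 barrier genes, 7 were called lower in the ONP at 30 days and none higher, with a median log2FC of -0.59. Slco1c1, a thyroid hormone transporter (log2FC -1.38, adjusted p = 0.0101), Slco1a4, an organic anion transporter (log2FC -2.29, adjusted p = 0.0115), and Tjp1, the tight junction scaffold ZO-1 (log2FC -0.81, adjusted p = 0.0144), had the smallest p-values. Of 10 vessel zone genes 3 were called lower, namely the venular chemokine receptor Ackr1 (log2FC -2.99), the amino acid transporter Slc38a5 (-3.73) and the arterial connexin Gja4 (-2.26). Of 22 vessel signalling genes tested 4 were called lower, including the phosphatase Ptprb (log2FC -2.50, adjusted p = 0.00624) and the lymphatic VEGF receptor Flt4 (log2FC -3.11, adjusted p = 0.00773). Called higher were 2, the neuropilin co-receptor Nrp2 (log2FC 1.12, adjusted p = 0.00641) and the VEGF family ligand Pgf, named after its value was seen (log2FC 1.14, adjusted p = 0.0136). In the ONP libraries at 30 days Flt4 was at 0 to 10 and Gja4 at 3 to 23 counts, close to the limit of 3 counts. Smooth muscle and further pericyte genes were called lower in 2 of 9 and 1 of 10 tested.

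Markers of other cell types moved in both directions between the days, and their part in the result was not tested. Markers of oligodendrocyte precursors had 4 of 5 positive log2FC (median 0.33) and red cell markers 5 of 5 (median 0.35), with none called. Of 5 neuronal markers tested, 1 was called higher (Sncg) and 2 lower (Nefl and Nefm). Of 8 oligodendrocyte markers 6 were called lower in the ONP at 30 days, and their sum ranged from 80880.2 to 105844 CPM at 7 days and from 25277 to 82974 CPM at 30 days. Fibroblast markers had 10 of 10 negative log2FC with none called, and sums of 202 to 832 CPM and 106 to 734 CPM. Epithelial markers, which were low, had 5 of 6 negative log2FC with a median of -2.28, further from 0 than the endothelial one, and Krt14, a keratin, was called lower, with sums of 9.62 to 75.6 CPM at 7 days and 1.56 to 37.0 CPM at 30 days. Microglial markers had 8 of 8 negative and none called, with sums of 1196 to 1977 CPM and 228 to 3061 CPM. Astrocyte markers had 8 of 10 positive log2FC and 1 called higher (S100b, 0.62), with sums of 15260.0 to 21826 CPM and 15032 to 33600.0 CPM. In the ONP at 30 days, library 5 had the highest value in 19 of 24 endothelial genes but in 2 of 12 mural genes, and it also had the highest oligodendrocyte and fibroblast sums and the lowest astrocyte sum.

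**Figure D2:**
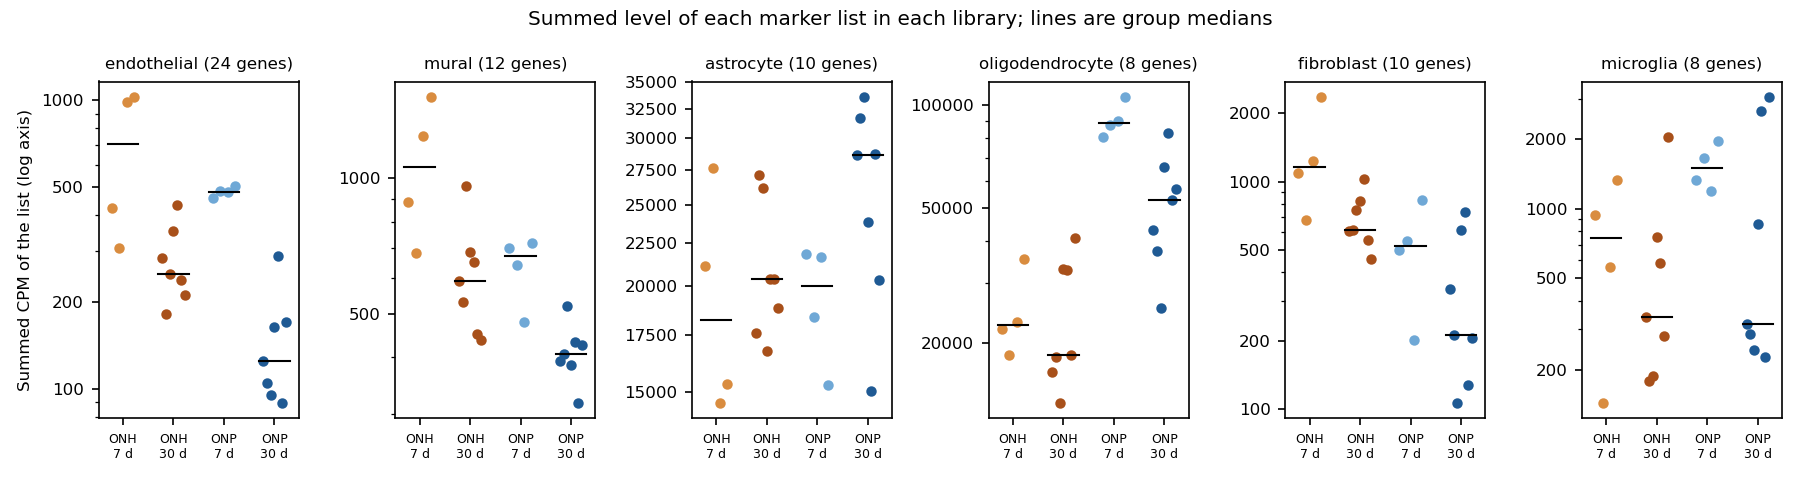
Summed CPM (log axis) of the 24 endothelial, 12 mural, 10 astrocyte, 8 oligodendrocyte, 10 fibroblast and 8 microglial genes in each library (points) by region and day, with lines at the group medians. Endothelial sums in the ONP were 458 to 505 CPM at 7 days and 89.5 to 290.2 CPM at 30 days, with no overlap, while 4 ONH libraries at 7 days spread from 308 to 1029.6 CPM.

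The same question was asked of the ONH, where the 7 day libraries were widely spread. No member was called, 0 of the 35 tested, and no gene of the whole table was called (0.0% of 15668). At an unadjusted p under 0.05 there were 18 of 23 endothelial and 6 of 12 mural genes, all negative, against 13.9% of all genes tested. With DESeq2, 14 members were called lower, against 2.57% of all genes called in either direction. They were the endothelial Pecam1, Flt1, Tek, Tie1, Esam, Mfsd2a, Sox18, Cavin2, Atp10a and Atp10d and the mural Mcam, Pdgfrb, Acta2 and Myh11. With limma-voom and a quality weight for each library, 0 members were called (0.0% of all genes). With all 4 groups in 1 edgeR fit 6 members were called, Acta2, Atp10a, Cavin2, Mcam, Mfsd2a and Pdgfrb, against 1.74% of all genes.

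All 23 endothelial genes tested in the ONH had negative log2FC, from -2.98 (Atp10d) to -0.57 (Kdr) with a median of -1.73, and 11 of 12 mural genes did, with a median of -0.79. With limma-voom and quality weights the medians were -1.08 and -0.58. In that fit 2 endothelial genes, Abcb1a and Egfl7, and 2 mural genes, Notch3 and Cspg4, had positive log2FC. Pecam1 was at 8.89, 3.14, 29.00 and 49.01 CPM in ONH libraries 1, 3, 5 and 6 at 7 days and at 1.49 to 10.97 CPM (median 3.19) at 30 days (log2FC -2.47, SE 0.62, adjusted p = 0.189). Libraries 5 and 6 at 7 days were above every 30 day library, and libraries 1 and 3 were within the 30 day range. Cldn5 was at 12.1, 2.03, 111 and 60.2 CPM at 7 days and 3.67 to 33.5 CPM (median 9.04) at 30 days (log2FC -1.63, adjusted p = 0.371), with libraries 5 and 6 above every 30 day library again and library 3 below all of them. Library 6 was highest in 14 and library 5 in 7 of the 24 endothelial genes, whereas library 3 was lowest in 16. Library 6 also had the highest fibroblast, microglial and oligodendrocyte sums of the group (2366, 1339 and 35375 CPM). Library 3 had the lowest (678, 144 and 18390 CPM). Astrocyte sums were 21173, 27618, 14538 and 15303 CPM in libraries 1, 3, 5 and 6. Library 3 also had the highest total of all libraries (33307092 counts). The part of these differences in the result was not tested.

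Only 3 members did not overlap between days in the ONH, Cavin2, Mfsd2a and Mcam, all lower at 30 days, while 0.53% of all genes tested were separated in that direction. Cavin2 was at 145, 106, 98.8 and 127 CPM at 7 days and at 56.4 to 87.6 CPM (median 65.8) at 30 days (log2FC -0.80, SE 0.16, adjusted p = 0.180). Mfsd2a was at 26.5, 27.1, 19.03 and 43.9 CPM and at 4.61 to 18.9 CPM (median 12.9) (log2FC -1.14, SE 0.32, adjusted p = 0.189), with 19.032 CPM in the lowest 7 day and 18.864 CPM in the highest 30 day library. Mcam was at 93.2, 97.2, 118 and 90.5 CPM and at 55.7 to 76.8 CPM (median 64.8) (log2FC -0.60, SE 0.13, adjusted p = 0.180). The coefficient of variation in the ONH was 17.7% and 16% for Cavin2 and 12.7% and 10.6% for Mcam at 7 and 30 days, against 36.04% and 35.8% for Mfsd2a. Without ONH library 5 of 7 days, Cavin2 and Atp10a were called (adjusted p = 0.0428 and 0.0367).

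Among the contractile genes and the mural proteoglycan Cspg4, edgeR made no call in the ONH, whereas DESeq2 called Acta2 and Myh11 lower (adjusted p = 0.00689 and 0.0262). Acta2 (chr19:34241090-34255590, minus strand) was at 90.1, 47.5, 193 and 264 CPM at 7 days and at 21.1 to 93.3 CPM (median 30.3) at 30 days (log2FC -1.92, SE 0.45, adjusted p = 0.185), and 6 of 7 libraries at 30 days lay below all at 7 days. Tagln was at 463, 379.6, 541 and 395 CPM and at 143 to 563 CPM (median 253) (log2FC -0.71, adjusted p = 0.336), and library 3 at 30 days was above all 4 at 7 days. Myh11 was at 4.26, 0, 9.35 and 8.97 CPM and at 0 to 0.961 CPM (median 0.402) (log2FC -3.62, adjusted p = 0.201), and library 3 at 7 days held none. Cspg4 alone had a positive log2FC (log2FC 0.17, adjusted p = 0.873). Of the wider lists, 11 of 13 barrier, 17 of 22 signalling, 9 of 10 vessel zone, 7 of 9 smooth muscle and 9 of 11 further pericyte genes tested had negative log2FC, and none was called. Fibroblast markers were negative in 10 of 10 (median -1.53), with sums of 678 to 2366 CPM at 7 days and 456 to 1024 CPM at 30 days. Epithelial markers were negative in 5 of 5 tested with none called (median -3.99, 4 at an unadjusted p under 0.05), with sums of 6.91 to 246 CPM at 7 days and 1.48 to 22.7 CPM at 30 days. The part of either list in the result was not tested.

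**Figure D3:**
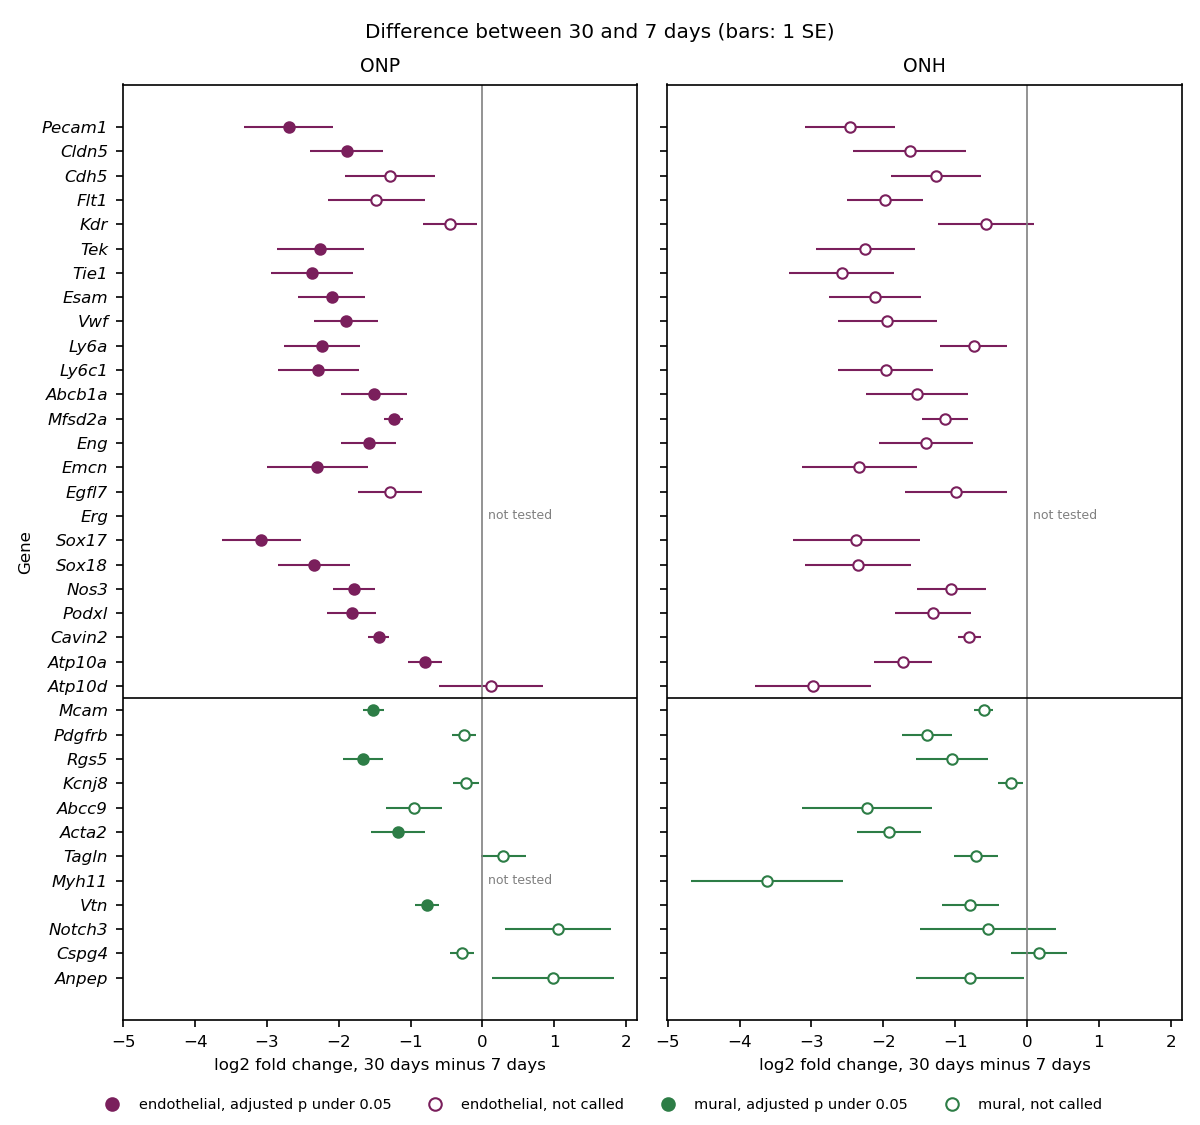
Log2 fold change from 7 to 30 days (horizontal axis, points) of each gene in the ONP (left) and ONH (right) with bars of 1 SE; filled points were called, purple is endothelial and green mural. In the ONP 18 of 23 endothelial and 4 of 11 mural points are filled and lie left of 0, and in the ONH none is filled although 34 of 35 lie left of 0.

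Whether the change from 7 to 30 days differed between the regions was tested as an interaction over all 4 groups. Of the 36 members 1 was called, against 0.543% of all genes tested. This was Mcam, which was lower at 30 days by more in the ONP than in the ONH (log2FC -0.91, SE 0.20, adjusted p = 0.0328, ONP change minus ONH change). The call was lost when any 1 of 12 of the 22 libraries was left out, and without library 7 of 30 days in both regions. The endothelial median was -0.06 and the mural median 0.88, which was 0.01 over the 8 mural genes tested under every alternative. Over the 16 endothelial genes tested under every alternative it was -0.13, and -1.35 with limma-voom and quality weights. The smallest adjusted p among endothelial genes was 0.200 (Cavin2, log2FC -0.64), and for Pecam1 the difference was -0.23 with an SE of 0.96. Calls in the ONP and none in the ONH therefore do not show that the endothelial change differed between the regions.

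At 30 days the regions themselves were compared. Here the endothelial list split: of 23 tested, 6 were called higher and 2 lower in the ONH, and 15 were not called. Of 11 mural genes tested, 4 were called higher and 1 lower. Over all genes tested 21.8% were called higher and 20.0% lower, so calls in this comparison were common and their number is not particular to vessel genes. A lack of overlap was common too, with 1402 of the 15133 genes tested higher and 1073 lower in the ONH. The median log2FC was 0.60 for the endothelial and -0.25 for the mural genes, and the mural median had the other sign (0.19) over the 8 genes tested under every alternative, so no direction is given for that list.

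Of the mural genes Acta2, Tagln, Rgs5 and Mcam were called higher in the ONH. Acta2 was at 21.1 to 93.3 CPM (median 30.3) in the ONH and at 5.33 to 13.5 CPM (median 7.46) in the ONP (log2FC 2.24, SE 0.33, adjusted p = 9.09e-05), without overlap. Tagln was at 143 to 563 CPM (median 253) and at 55.8 to 154 CPM (median 87.1) (log2FC 1.62, SE 0.31, adjusted p = 0.000683), with 6 of 7 ONH libraries above all ONP libraries. Rgs5 was at 9.21 to 45.5 CPM (median 23.5) and at 3.88 to 13.05 CPM (median 6.09) (log2FC 1.88, SE 0.34, adjusted p = 0.000435). Mcam was higher by a smaller amount (log2FC 0.54, adjusted p = 0.00199). Pdgfrb went the other way, at 5.34 to 13.8 CPM (median 6.90) in the ONH and at 15.1 to 20.8 CPM (median 18.3) in the ONP with no overlap (log2FC -1.13, SE 0.20, adjusted p = 0.000337). Further smooth muscle genes shared the direction of Acta2, with 5 of 8 tested called higher in the ONH and none lower, including Mylk, myosin light chain kinase (log2FC 3.21, adjusted p = 2.18e-07), Tpm2, a tropomyosin (log2FC 2.05, adjusted p = 7.64e-06), and Cnn1, calponin (log2FC 3.51, adjusted p = 0.000147). Of 11 further pericyte genes 4 were called higher and none lower, led by the cytochrome oxidase subunit Cox4i2 (log2FC 2.56, adjusted p = 2.13e-07). Of 20 vessel signalling genes tested 6 were called higher in the ONH, among them the growth factor Vegfa (log2FC 0.98, adjusted p = 0.00180), and 4 lower, among them Nrp2 (log2FC -1.04, adjusted p = 0.000466) and the apelin ligand Apln (log2FC -0.995, adjusted p = 0.00216). Of 8 vessel zone genes 3 were higher, led by the venous factor Nr2f2 (log2FC 1.28, adjusted p = 1.36e-05) and the arterial ligand Efnb2 (log2FC 1.58, adjusted p = 0.000578), and 1 lower, the capillary carbonic anhydrase Car4 (log2FC -1.90, adjusted p = 0.0156). Car4 was low, at 1 to 25 counts in the ONH libraries at 30 days.

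Endothelial genes called higher in the ONH at 30 days were Cavin2, Ly6a, Kdr, Egfl7, Podxl and Emcn. Cavin2 was at 56.4 to 87.6 CPM (median 65.8) in the ONH and at 17.7 to 27.2 CPM (median 21.3) in the ONP (log2FC 1.70, SE 0.13, adjusted p = 2.24e-07), the only one of the 6 without overlap. Ly6a was at 14.2 to 113 CPM (median 42.8) and at 2.43 to 25.2 CPM (median 6.997) (log2FC 2.37, SE 0.55, adjusted p = 0.00273), and 5 of 7 ONH libraries were above all ONP libraries. Kdr was at 3.86 to 66.9 CPM (median 18.1) and at 1.79 to 10.7 CPM (median 6.78) (log2FC 1.84, SE 0.52, adjusted p = 0.0105), and library 3 of the ONH stood far above the rest at 66.9 CPM. Egfl7, Podxl and Emcn had log2FC of 1.74, 1.22 and 1.81 (adjusted p = 0.0112, 0.0173 and 0.0442), and the call of Emcn was kept in 5 of 14 fits that left out a library.

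Mfsd2a and Atp10d were called lower in the ONH. Mfsd2a was at 4.61 to 18.9 CPM (median 12.9) in the ONH and at 26.8 to 33.6 CPM (median 29.99) in the ONP (log2FC -1.15, SE 0.23, adjusted p = 0.000936), and every ONH library was below every ONP library. Atp10d was at 0 to 1.08 CPM (median 0.216) and at 0.306 to 1.84 CPM (median 1.51) (log2FC -1.92, SE 0.61, adjusted p = 0.0189), with 3 ONH libraries at or under 3 counts. The general endothelial markers were not called, with log2FC of 0.58 for Pecam1 (adjusted p = 0.458), 1.04 for Cldn5 (0.143), 0.40 for Tie1 (0.588) and 0.60 for Vwf (0.292). An edgeR fit with the library number as a replicate block called Pecam1, Cldn5 and Vwf higher in the ONH (adjusted p = 0.0391, 0.0114 and 0.0293). Tie1 was not called in that fit (adjusted p = 0.296), and no source ties the numbers across the regions. Among other barrier genes, 3 were called higher and 4 lower in the ONH, and the 3 with the smallest p-values were Slco1c1 (log2FC 3.26, adjusted p = 6.44e-06), Bsg, basigin (log2FC 0.83, adjusted p = 1.95e-05), and Ocln, occludin (log2FC -1.95, adjusted p = 3.16e-05).

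The library numbered 5 at 30 days had the highest value of 16 of the 24 endothelial genes in the ONH and of 19 in the ONP, and the sources do not say whether libraries of the same number in the 2 regions came from the same mice. Pecam1 in library 5 was at 10.97 CPM in the ONH and 8.81 CPM in the ONP. Without library 7 of both regions 12 members were called, Atp10d and Emcn losing and Cspg4 gaining the call. The share of all genes called in that fit is not given, so this count is not read as particular to vessel genes.

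**Figure D4:**
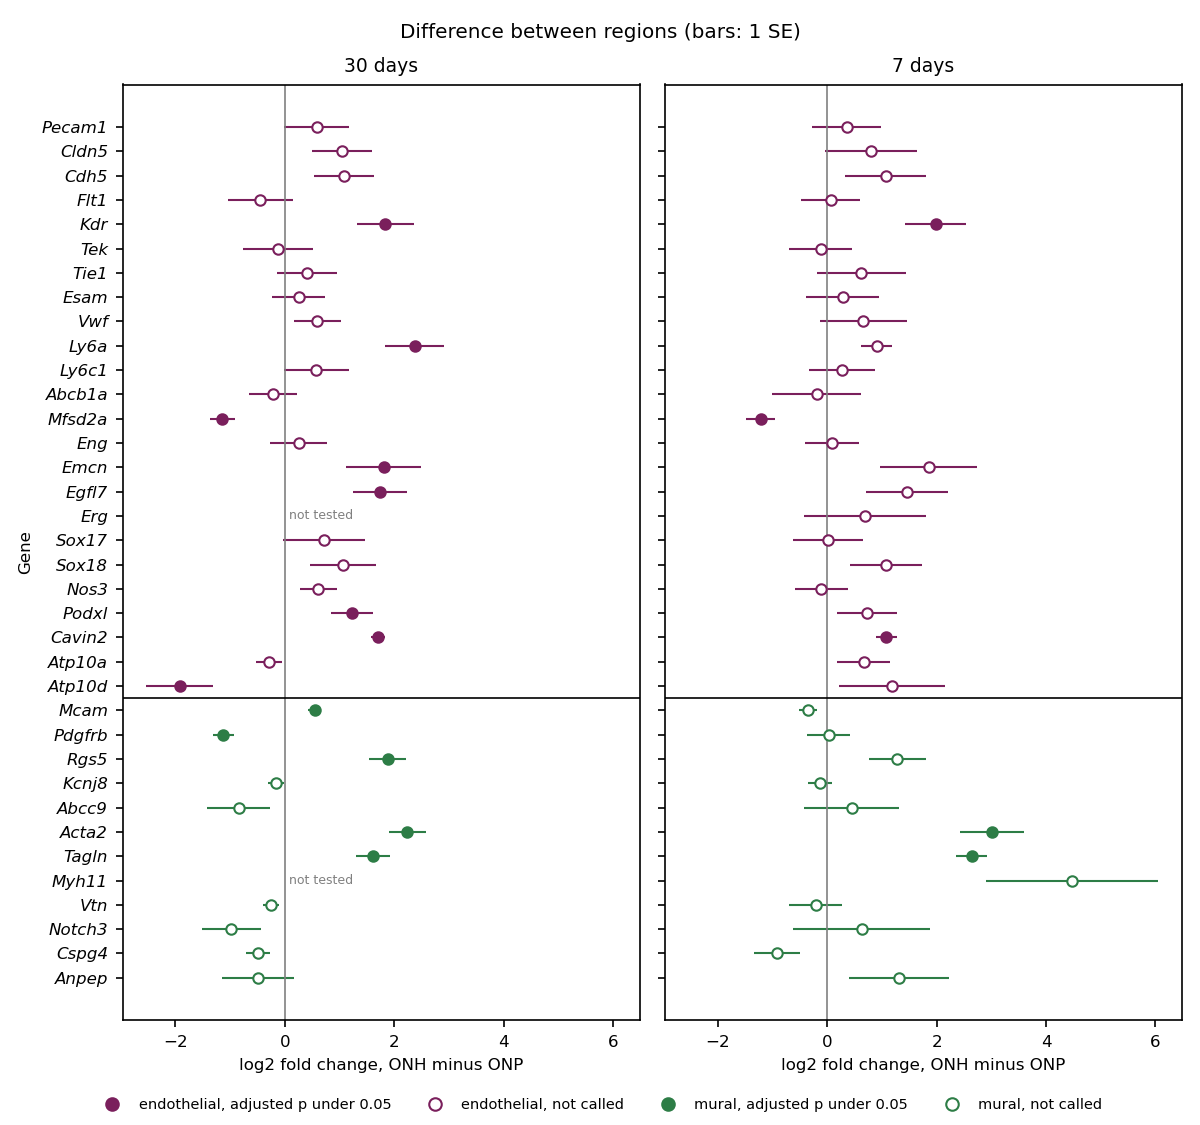
Log2 fold change between ONH and ONP (horizontal axis, positive where the ONH is higher) of each gene at 30 days (left) and 7 days (right), with bars of 1 SE; filled points were called, purple is endothelial and green mural. At 30 days Acta2, Tagln, Rgs5, Cavin2 and Ly6a are filled to the right of 0 and Pdgfrb, Mfsd2a and Atp10d to the left, and at 7 days 5 points are filled.

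The regions were also compared at 7 days, with 4 libraries each. Of 24 endothelial genes 2 were called higher in the ONH (Cavin2 and Kdr) and 1 lower (Mfsd2a), and of 12 mural genes 2 were called higher (Acta2 and Tagln), against 6.34% higher and 6.81% lower over all genes tested. Of the 14752 genes tested, 1459 were higher and 1748 lower in the ONH without overlap. A lack of overlap is therefore not particular to vessel genes here. Acta2 was at 90.1, 47.5, 193 and 264 CPM in the ONH and at 25.7, 17.6, 5.54 and 25.9 CPM in the ONP (log2FC 3.01, SE 0.58, adjusted p = 0.00721). Tagln was at 463, 379.6, 541 and 395 CPM and at 100.2, 75.1, 37.3 and 76.3 CPM (log2FC 2.64, SE 0.28, adjusted p = 0.000295). Neither gene overlapped between the regions, and for Acta2 the ONH library 3 and ONP library 6 came closest. Cavin2 was at 145, 106, 98.8 and 127 CPM and at 71.9, 55.9, 49.1 and 51.7 CPM (log2FC 1.08, SE 0.19, adjusted p = 0.00426), and Mfsd2a at 26.5, 27.1, 19.03 and 43.9 CPM and at 64.1, 60.1, 58.4 and 91.8 CPM (log2FC -1.22, SE 0.27, adjusted p = 0.0135), both without overlap. Kdr, at 61.1, 5.65, 29.6 and 31.3 CPM and at 6.31, 9.61, 10.2 and 6.52 CPM, had a log2FC of 1.98 (adjusted p = 0.0391), and its call was kept in 1 of 8 fits that left out a library. These 5 genes were also called at 30 days, in the same direction, in libraries that are separate from the 7 day ones. At 30 days 41.8% of all genes tested were called, and how many 7 day calls of all genes recurred there was not computed. Kdr was not called at 30 days in the edgeR fit with a replicate block (adjusted p = 0.0523).

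The remaining members at 7 days were not called. Myh11 was at 4.26, 0, 9.35 and 8.97 CPM in the ONH and at 0.184, 0, 0.780 and 0 CPM in the ONP (log2FC 4.48, adjusted p = 0.0881), and 3 of these 4 ONP libraries held 3 counts or fewer. Pecam1 and Sox17 had log2FC near 0 (0.36 and 0.02), with ONH libraries 5 and 6 above and libraries 1 and 3 below all 4 ONP libraries. This split was found in 13 of 24 endothelial and 0 of 12 mural genes, against 0.719% of all genes tested, and it was defined after it was seen in these genes. Of the smooth muscle genes 4 of 8 tested were called higher in the ONH and none lower, and Cnn1, Mylk and Tpm2 were again among them (log2FC 5.40, 1.70 and 3.21). Oligodendrocyte markers differed between the regions at both days, with 8 of 8 called lower in the ONH at 7 days and 6 of 8 at 30 days. Of 10 fibroblast markers 1, the collagen Col1a2, was called higher in the ONH at both days and none lower, and the list had 9 positive and 1 negative log2FC at 7 days (median 1.01) and 5 and 5 at 30 days (median 0.02). Their part in the vessel genes' differences was not tested.

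**Figure D5:**
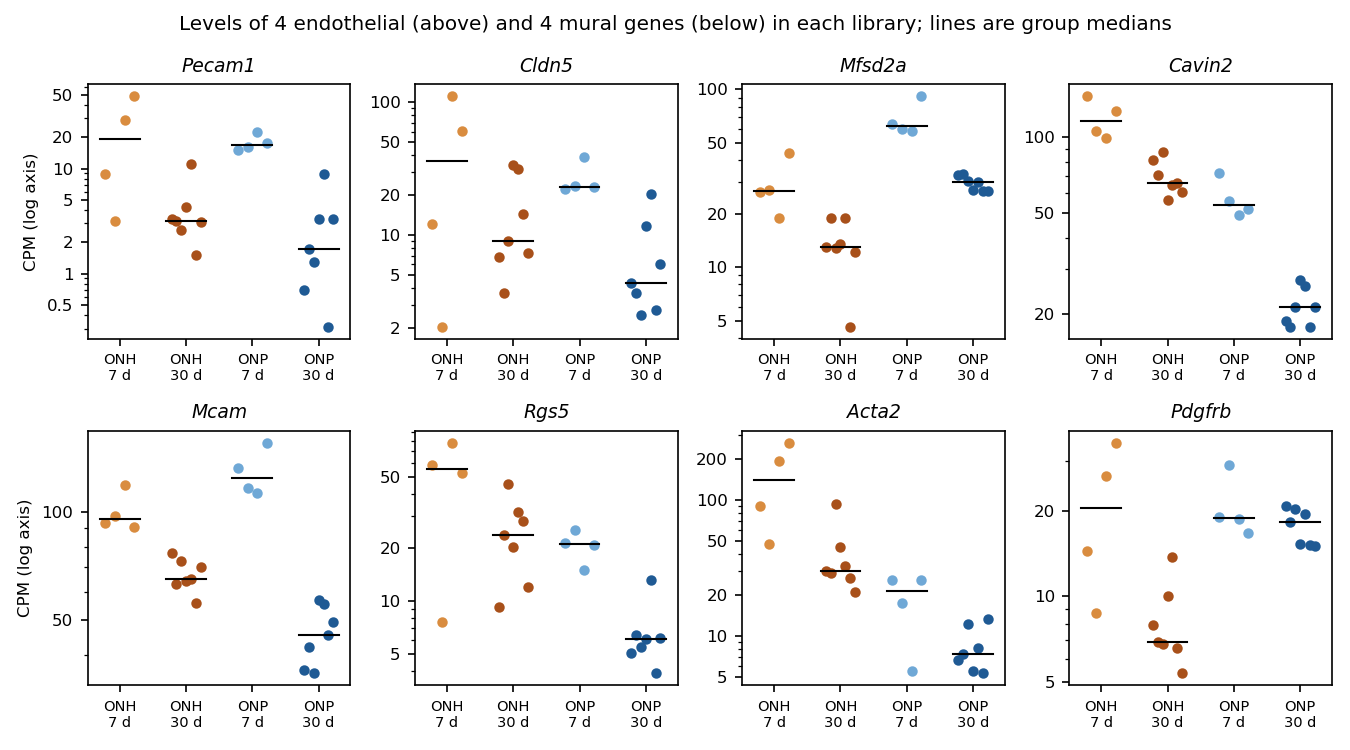
CPM (log axis) of Pecam1, Cldn5, Mfsd2a and Cavin2 (endothelial, upper row) and Mcam, Rgs5, Acta2 and Pdgfrb (mural, lower row) in each library (points) by region and day, with lines at the group medians. Pecam1 and Cldn5 spread widely in the 4 ONH libraries at 7 days, whereas Cavin2 and Mcam keep narrow groups, and Mfsd2a is lower and Cavin2 higher in the ONH than in the ONP at both days.

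Levels were last compared between genes per kilobase of exon, as mean CPM per kb. In the ONH, Tagln was the highest of the 36 at both days (224 at 7 and 139 CPM per kb at 30 days), and in the ONP it was Vtn (148 and 88.6). The highest endothelial gene was Ly6a in the ONH at both days (73.97 and 45.1) and in the ONP at 7 days (39.96), but Mfsd2a in the ONP at 30 days (13.2). Erg and Atp10d among endothelial and Myh11, Notch3, Abcc9 and Anpep among mural genes stayed under 1 CPM per kb in every group. Pecam1 and Cdh5, which define endothelium, were at 0.444 and 0.202 CPM per kb in the ONP at 30 days, and the mural Pdgfrb was at 3.25.

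Spread between libraries also ordered the genes. In the ONP at 30 days the coefficient of variation was 113% for Ly6c1, 111% for Flt1, 102% for Tek and 88.96% for Cldn5. It was 14.3% for Pdgfrb, 16.97% for Vtn, 17.8% for Cavin2 and 20.3% for Kcnj8. Values over 75% were found in 13 of 24 endothelial and 2 of 12 mural genes, and values under 25% in 3 and 6. The shares over all genes were not computed. Library 5 had the highest value in 19 of the 24 endothelial and 2 of the 12 mural genes in this group, so these counts are not separate for each gene. In the 4 ONP libraries at 7 days some endothelial genes were close together, with 8.04% for Esam and 10.5% for Ly6a.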

How the data were processed

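Ribosome-bound, polyadenylated RNA was sequenced from pools of 4 mice in 22 libraries. Per the labels and methods, the authors aligned reads with STAR 2.6.1d to mm10 and quantified genes with Salmon 0.14.2. The deposited values are expected counts, rounded to whole numbers by the authors, and their variance-stabilised table was not used. Genes were tested with edgeR 4.0.16 (filterByExpr, TMM, quasi-likelihood, Benjamini-Hochberg adjustment over all genes tested, threshold 0.05) in R 4.3.3, on the 2 groups of each comparison, and on all 4 groups for the interaction. DESeq2 1.42.0, limma 3.58.1, other scalings, other filters and left-out libraries were the alternatives. The limma-voom fits used a quality weight for each library, except the fit with the replicate block, which used none. Libraries at 7 days carry column numbers that do not match the labels' replicate numbers, so they were mapped to groups only and not paired. Per the study's methods, ONH and ONP tissue came from the same mice, but the sources used here do not link the replicate numbers of the 2 regions, so libraries at 30 days were not paired either. No batch is named. Medians of a list cover its tested genes, and under the alternatives those tested in all of them. All 36 members are accounted for. Of each other list at most the 3 genes with the smallest adjusted p are named, unless said otherwise. The members and lists were chosen with earlier results of these data known. The scripts were tested on simulated data. Promoter windows are from RefSeq (GRCm38.p6).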

Additional observations from a re-analysis of the deposited data

Results flagged for a closer look

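In 21 of 143 groups of a gene's libraries, 1 library stood far from the rest of its group by Dixon's criterion. For independent, normally distributed values chance alone reaches it in about 1 in 20 groups. The criterion was applied to CPM without a log scale, and the 143 groups reuse the same 22 libraries. The rate for these data was not estimated, so no excess over chance is claimed. Library 5 of 30 days was the high one in the ONH for Pecam1 (10.97 CPM), Abcb1a (4.73 CPM), Podxl (27.2 CPM) and Atp10d (1.08 CPM). In the ONP, library 5 of 30 days was high for Pecam1 (8.81 CPM), Tek (10.03 CPM), Ly6c1 (27.3 CPM), Sox17 (3.41 CPM), Nos3 (8.96 CPM) and Rgs5 (13.0 CPM). Library 3 of the ONH at 30 days was high for Kdr (66.9 CPM), Acta2 (93.3 CPM), Tagln (563 CPM) and Anpep (2.71 CPM), and library 4 for Eng (32.1 CPM). At 7 days the library apart was ONP library 5 for Cldn5 (38.6 CPM) and Egfl7 (10.6 CPM), ONP library 6 for Mfsd2a (91.8 CPM), ONH library 6 for Eng (59.2 CPM) and ONH library 5 for Cspg4 (42.3 CPM), all high, and ONP library 1 for Tek (8.77 CPM), which was low.

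The change of Mcam from 7 to 30 days differed between the regions in the interaction test of edgeR (log2FC -0.91, ONP change minus ONH change, adjusted p = 0.0328).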

How the results depend on the processing

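No called member changed direction under the alternatives run. List medians depended on which low genes were tested: at 7 days the mural median between regions was 0.54 over 12 genes and -0.05 over the 8 tested under every alternative. Over the 16 endothelial genes tested under every alternative, the median of the interaction moved from -0.13 to -1.35 with limma-voom and quality weights. It was -0.87 with limma-voom and the replicate block, a fit without those weights. In the ONP, 22 members were called between 30 and 7 days, and 13 with all 4 groups in 1 fit, all 13 among the 22. Leaving out 1 library gave 16 to 23. DESeq2 gave 24, with Egfl7 and Erg gained, and limma-voom with quality weights gave 23. For these counts and the left-out ranges below, shares over all genes are not given, so they show only how the members' calls moved. In the ONH the count was 0, with 14 by DESeq2, 6 with all 4 groups in 1 fit and 0 to 2 when 1 library was left out. Between regions it was 13 at 30 days (12 to 16 with 1 library left out) and 5 at 7 days (3 to 7, with 3 without ONP library 6, when Kdr and Mfsd2a lost their calls). For the interaction, the single call of Mcam became 0 with library size only, 0 without a filter on low counts and 0 without library 7 of 30 days in both regions, an alternative chosen after seeing the data, and 0 to 1 when 1 library was left out. Over its 30 alternatives the log2FC of Mcam ranged from -1.004 to -0.76 and its adjusted p from 0.00436 to 0.140. At 30 days no source ties the replicate numbers across regions. Deviations of same-numbered libraries correlated at 0.0746 to 0.494, over 0.1 for 5 of 7 numbers, and 3 of 7 correlated best with their own number (highest with another, 0.093 to 0.419). With the number as a replicate block 19 members were called, against 44.4% of all genes, and 12 of the 19 were shared with the fit without it. Cdh5, Cldn5, Ly6c1, Pecam1, Sox18 and Vwf gained a call as higher in the ONH. Cspg4 gained a call as lower, and Kdr lost its call. The cause of these differences was not tested.

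Precision was limited by 4 libraries per region at 7 days and by counts of 3 or fewer in at least 1 library for 9 members (Cdh5, Emcn, Erg, Sox17, Atp10d, Abcc9, Myh11, Notch3 and Anpep), among them Emcn in the ONP and Sox17 in the ONH at 30 days. Reads shared by near-identical genes are divided by the quantification, so Ly6a and Ly6c1 are less certain.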
